A study of Mus musculus with 16 samples.

Results

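The 10 genes described here encode proteins of the immediate-early transcriptional response: Fos, Fosb, Jun, Junb and Atf3, which belong to the AP-1 and ATF family of leucine zipper factors, Egr1 and Klf6, which are zinc finger factors, Nr4a1, an orphan nuclear receptor, and Ier2 and Ier5, nuclear proteins of the early response. They were chosen by name, and all 10 were among the 24421 gene rows of the count tables. The tables held single-cell RNA-seq of crypt-enriched small intestine from outbred mice at postnatal day 16. The WT group was wild type. The ROBO group carried the ROBO-Crainbow allele together with Villin-Cre, each on 1 chromosome copy, so that recombination in intestinal epithelial cells started expression of 1 of 3 barcoded candidate oncogenes, human RSPO3 or either of the PTPRK:RSPO3 fusions. Cells that have not recombined express a fluorogen-activating protein alone. The transgenes were not analysed here, so the ROBO cells were not divided by barcode. Cre under the Villin promoter acts in the epithelium and not in immune cells of the same suspension. Each genotype had 8 labelled samples run on 2 cartridges, but the cells of a genotype came in 1 table with no link to a mouse, so each genotype counts as 1 pooled sample. Differences between genotypes therefore have no replicate check, and no p-value is given. The 95% intervals cover counting error only and treat molecules (unique molecular identifiers, UMIs) as independent, so they take no account of differences between mice. The intervals of levels and ratios also take no account of differences between cells. They are therefore too narrow where the UMIs of a gene sit in few cells.

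Immediate-early genes are transcribed within minutes of a stimulus, from transcription factors already present in the cell and without new protein synthesis. Growth factor receptors, the MAP kinase cascades, calcium and cyclic AMP all reach them, through factors such as SRF with its ternary complex partners and CREB. Their transcripts are short-lived, and the products of genes such as Dusp1 and Zfp36 shut the response down. In intestinal epithelium they respond to growth factors, wounding and inflammation, and they are also known to be induced while a tissue is being dissociated into single cells. All cells of both genotypes went through EDTA and mechanical crypt isolation, about 1 h in 0.25% trypsin that also held Collagenase/Dispase at 1 mg/ml and DNase. No undissociated tissue was analysed here, so the level a cell had in the mouse and the level it reached during handling cannot be told apart for any value below.

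Because the 10 genes proved to be detected together, the stretches before their starts were compared. Of the 10 genes, 8 had a promoter window in the RefSeq table (build GRCm38.p6), and Egr1 and Ier2 had none. The letters TGACG, the core letters of the cyclic AMP response element, were searched on both strands of the 250 bases before the start. Fos, Fosb, Junb, Atf3 and Nr4a1 held at least 1 match (5 of 8), and 17.8% of all 32851 promoters of this length did. Fos is shown as the gene with the most UMIs, Fosb as its closest relative, and Nr4a1 as the gene with the most matches and the largest genotype ratio. The capitals mark TGACG or, on the other strand, its complement CGTCA.
Fos: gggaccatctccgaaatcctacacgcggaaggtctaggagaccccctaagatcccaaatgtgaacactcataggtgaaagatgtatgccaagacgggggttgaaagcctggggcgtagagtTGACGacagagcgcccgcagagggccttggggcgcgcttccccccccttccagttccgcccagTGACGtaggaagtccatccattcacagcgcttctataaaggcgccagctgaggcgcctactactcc
Fosb: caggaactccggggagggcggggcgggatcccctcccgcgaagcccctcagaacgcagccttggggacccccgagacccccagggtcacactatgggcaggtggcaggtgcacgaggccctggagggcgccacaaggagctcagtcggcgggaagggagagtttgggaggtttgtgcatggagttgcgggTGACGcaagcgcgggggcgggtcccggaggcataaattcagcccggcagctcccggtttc
Nr4a1: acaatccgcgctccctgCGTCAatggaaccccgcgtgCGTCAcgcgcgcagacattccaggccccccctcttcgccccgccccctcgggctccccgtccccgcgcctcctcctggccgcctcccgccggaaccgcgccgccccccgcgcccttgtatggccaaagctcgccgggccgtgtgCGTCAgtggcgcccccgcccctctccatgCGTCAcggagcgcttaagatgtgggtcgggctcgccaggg
The Fos stretch lies at chr12:85473640-85473889 on the plus strand, the Fosb stretch at chr7:19310046-19310295 on the minus strand, and the Nr4a1 stretch at chr15:101266596-101266845 on the plus strand. The Nr4a1 stretch falls inside the gene span of the GENCODE annotation, 101254269 to 101274795, whose first start lies further upstream. Fos had 2 matches, with first bases 129 and 66 bases before the start, and a TATAAA box beginning 33 bases before it. Fosb had 1 match beginning 60 bases before the start. Nr4a1 had 4 matches, all on the other strand. The AP-1 site TGANTCA and the serum response element core (CArG box) were searched in the same way and had no match in the 8 windows, against 6.75% and 1.47% of all promoters. No search reached further upstream than 250 bases, and none covered Egr1 or Ier2. A match of letters is a description and not a binding site. The lack of a match here does not show that a gene lacks such a site.

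The 1348 WT cells held 2682127 UMIs (533 to 11908 per cell, median 1492) and the 1249 ROBO cells 2428435 (463 to 13756, median 1610). The 10 genes took 9715 UMIs in WT and 8875 in ROBO, or 36.2 and 36.5 per 10000 UMIs. Cells were clustered without the 10 genes or the companion lists described below, and clusters were given a class from marker genes. The classes were stem cell-like (559 cells), transiently amplifying-like (681), bottom, middle and top enterocyte-like (258, 482 and 225), secretory-like (124), enteroendocrine-like (30) and immune-like (46). A cluster of 192 cells led by Myl7, Sult1a1, Tfap4, Reg3g and Reg3b stayed unnamed. Of the transiently amplifying-like cells, 361 formed a cluster led by the ribosomal RNA row Rn45s, with a median of only 909 UMIs. As a gauge of free RNA, Gzma, a cytotoxic lymphocyte gene, had a UMI in 45.7% of immune-like cells thinned to 912 UMIs and in at most 0.909% of any other class. Zg16, a goblet cell gene, had one in 27.3% of secretory-like cells and in 0% to 10% of the others. Median depth before thinning was 1882 UMIs in the immune-like and 2037 in the secretory-like cells kept, and 1493 to 3205 in all classes. No class is known to lack the 10 genes.

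Levels differed between classes by more than counting error. Summed over the 10 genes, immune-like cells had 72.4 UMIs per 10000 (interval 66.9 to 78.2), secretory-like cells 66.7 (63.5 to 70) and enteroendocrine-like cells 62.1 (55.1 to 69.7), and these 3 overlapped. Bottom enterocyte-like cells followed at 44.9 (43.2 to 46.7) and middle enterocyte-like cells at 39.3 (38 to 40.5). The transiently amplifying-like (35.1), top enterocyte-like (33.5) and stem cell-like (31.6) classes came next, with each overlapping its neighbour. The unnamed cluster was lowest at 15.9 (14.9 to 16.9). The secretory-like level was thus 2.11 times the stem cell-like level. This order held in both genotypes for the 3 highest classes and the lowest one. The WT and ROBO values were 72.4 and 72.3 in immune-like, 70 and 63.4 in secretory-like, 61.9 and 62.3 in enteroendocrine-like, and 16 and 15.8 in unnamed cells.

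Depth per cell moved with these levels. When cells were ranked by depth and divided into 4 groups of nearly equal size, the 10 genes took 59.3 UMIs per 10000 in the shallowest group (463 to 911 UMIs per cell) and 43.4, 35.5 and 30.5 in the following ones. Rn45s went with them, at 29.4, 11.8, 6.26 and 2.38 per 10000. The unnamed cluster was the deepest, with a median of 3205 UMIs. Among cells between 912 and 2635 UMIs, the unnamed cluster still had 16.9 per 10000, stem cell-like cells 29.6, bottom enterocyte-like cells 54.7, secretory-like cells 64.2, immune-like cells 63.8 and enteroendocrine-like cells 68.9. The stem cell-like class joined 2 clusters of unlike depth and level. The shallower one (409 cells, median 943 UMIs, led by Igfbp4 and Rnf43) had 37.8 per 10000, and the deeper one (150 cells, median 2333 UMIs, led by Clu and with Lgr5 among its leading genes) had 23.4.

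Within the AP-1 group each gene had its own distribution. Fos, the DNA-binding partner of the Jun proteins and the most abundant of the 10 with 5290 UMIs, was highest in secretory-like cells, at 21.2 per 10000 (19 in WT, 23.4 in ROBO). Its next 6 classes lay between 9.36 and 12.1 with overlapping neighbours, stem cell-like cells had 8.55, and the unnamed cluster 4.65. Fosb, which forms the same kind of dimer, reached 5.14 in secretory-like, 4.35 in enteroendocrine-like and 4.04 in immune-like cells, which overlapped and whose order differed between genotypes, but only 0.857 in stem cell-like cells and 0.238 in the unnamed cluster. The span from highest to lowest class was therefore 21.6-fold for Fosb and 4.55-fold for Fos.

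Jun, the central partner of AP-1, was highest in enteroendocrine-like (16.1) and secretory-like cells (12.6). All remaining named classes lay between 6.65 and 9.51. Junb, a Jun family member prominent in lymphocytes, stood apart from this pattern. Immune-like cells had 25.7 per 10000 (22.5 to 29.3), and the next class, secretory-like, had 4.36 (3.57 to 5.27). Junb was counted 2.22 times as often as Fos in immune-like cells, and between 0.205 and 0.419 times as often in the other classes. It made up 35.5% of the UMIs of the 10 genes in immune-like cells, where Fos made up 16% and Jun 10.4%. Atf3, a stress-inducible member of the ATF family, had 5.92 in secretory-like and 5.88 in enteroendocrine-like cells. It reached 3.95 in middle and 3.04 in bottom enterocyte-like cells, but 1.07 in stem cell-like cells.

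Egr1 and Nr4a1 were low in middle and top enterocyte-like cells, where Klf6 was high. Egr1, a direct target of ERK and SRF signalling, had 9.58 in enteroendocrine-like, 6.53 in secretory-like and 5.81 in bottom enterocyte-like cells, with overlapping neighbours. The first 2 changed places between genotypes, with 6.08 and 8.32 in WT and 14.3 and 4.76 in ROBO. It had 2.95 in middle and 2.18 in top enterocyte-like cells. Nr4a1, which in T cells follows antigen receptor signalling, had a span of 34-fold between classes in the pooled cells. It had 9.54 (7.62 to 11.8) in immune-like and 6.1 (4.05 to 8.81) in enteroendocrine-like cells. The first value came mostly from WT, with 12.6 in WT and 4.86 in ROBO, where enteroendocrine-like cells were slightly higher at 5.1. Secretory-like cells had 3.04, stem cell-like cells 1.85, bottom enterocyte-like cells 1.67 and transiently amplifying-like cells 1.36. Middle and top enterocyte-like cells had only 0.582 and 0.281. Klf6, a Krüppel-like factor, ran the other way. Its highest value was in middle enterocyte-like cells at 2.95 (2.62 to 3.31), followed by 2.18 in top enterocyte-like cells, with 0.809 in stem cell-like and 0.56 in transiently amplifying-like cells.

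The Ier genes also differed from each other. Ier2 was the flattest of the 10, at 2.39-fold from highest to lowest class. It had 5.21 in bottom enterocyte-like, 4.85 in transiently amplifying-like and 4.17 in stem cell-like cells, and 2.38 and 2.18 in middle and top enterocyte-like cells. Ier5 had its highest value in middle enterocyte-like cells, at 2.37 (2.07 to 2.7), and 0.954 in stem cell-like cells. In enteroendocrine-like cells it had 3 UMIs in all, and 0 in the 14 ROBO cells.

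**Figure D1:**
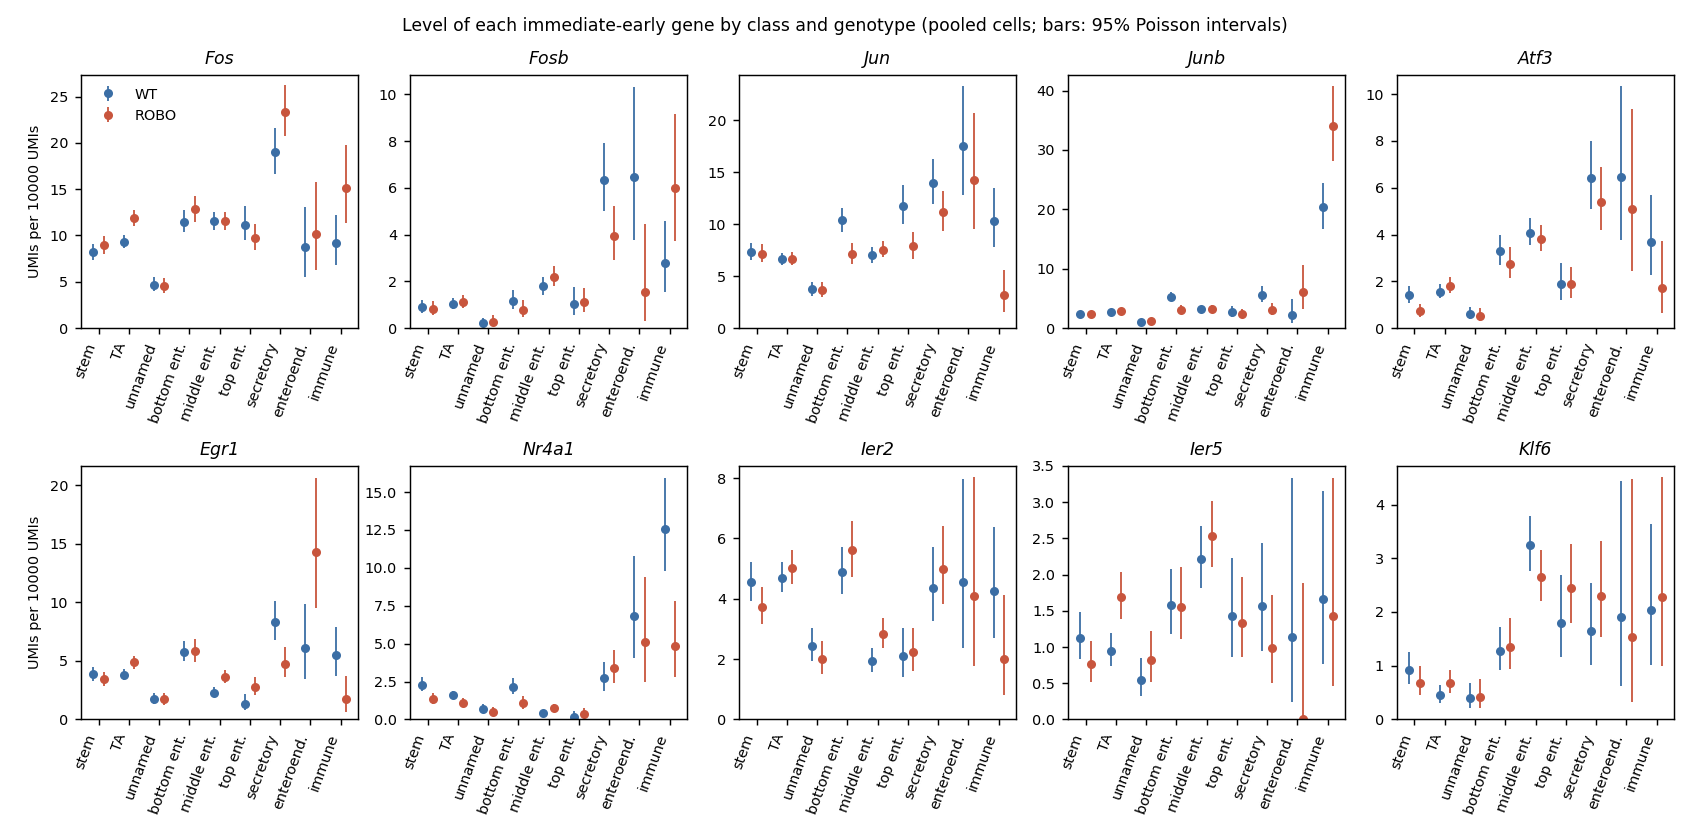
UMIs of each of the 10 genes per 10000 UMIs of the class (vertical axis, from 0 and with its own scale in each panel), in the classes along the horizontal axis (TA, transiently amplifying-like; ent., enterocyte-like; enteroend., enteroendocrine-like); blue points are the pooled WT cells, red points the pooled ROBO cells, and bars 95% Poisson intervals. Junb stands out in immune-like cells at 25.7 over both genotypes, while Klf6 and Ier5 have their highest pooled values, 2.95 and 2.37, in middle enterocyte-like cells.

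The UMIs of some of the 10 genes sat in few cells, though Fos had a UMI in 57.2% of cells and Jun in 52.9%. The 10% of cells (260 of 2597) richest in a gene held 83.1% of the UMIs of Fosb, 81.2% of Nr4a1, 80.6% of Klf6 and 79.6% of Atf3. They held 67.9% of Ier5, 59.4% of Egr1, 58.3% of Junb, 49.1% of Fos, 47.7% of Jun and 47.5% of Ier2. The 260 cells with the most UMIs of any gene held 25.4% of all UMIs. Sparse genes are concentrated for want of counts alone, so each gene was set beside the genes whose UMI totals lay within 1.25-fold of its own. Fosb, at 705 UMIs, exceeded 97.9% of 376 such genes, whose median share was 60.8%. Atf3, at 1180 UMIs, exceeded 98.1% of 419 genes with a median of 56.1%, and Nr4a1 97.6% of 420 genes with a median of 60.5%. Jun exceeded 80.6% of 98 genes. Ier2 exceeded 49.3% of 229 genes and was thus as spread out as a typical gene of its abundance. Single cells reached 45 UMIs of Fos, 38 of Jun, 24 of Klf6 and 23 of Atf3.

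The 10 genes were found in the same cells. Pearson's r was taken across the 2597 cells on log counts per 10000, after each class was centred on its mean, so that class differences did not enter. All 45 pairs had a positive r, with a median of 0.208. Pairs among other genes of like abundance are not given for comparison. The r of 7448 other genes with the mean of the 10 had a median of 0.00. The highest was Fos with Jun (0.4), followed by Fos with Egr1 (0.34) and Jun with Egr1 (0.33). The lowest was Ier2 with Klf6 (0.04). Against the mean of the other 9 genes, Fos had 0.51, Jun 0.51, Egr1 0.48, Atf3 0.46, Fosb 0.41, Junb 0.41, Ier2 0.35, Nr4a1 0.34, Ier5 0.28 and Klf6 0.21. By this measure the AP-1 genes and Egr1 had the highest values and Klf6 the lowest. Fos and Jun also had the most UMIs (5290 and 3745) and Klf6 the fewest (681), though Fosb, with 705, lay above Ier2, with 1932. The part of abundance in this order was not tested. All cells came from the same 2 pooled preparations and differed in depth, and with cells thinned to 912 UMIs the median r was 0.158. The median was 0.222 in WT alone and 0.203 in ROBO alone.

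**Figure D2:**
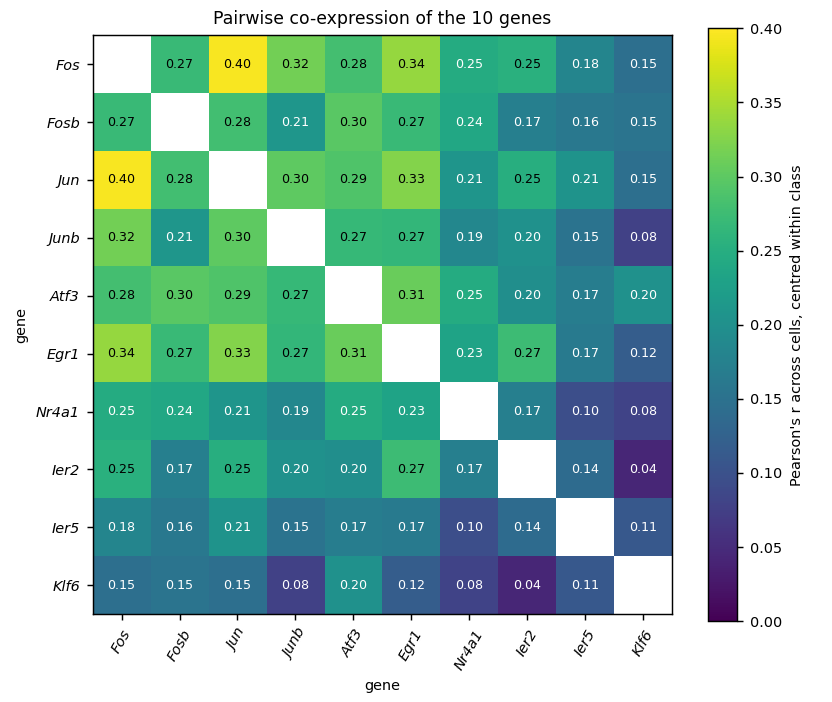
Pearson's r across 2597 cells between each pair of the 10 genes (rows and columns), on log counts per 10000 centred within class; colour and printed value give r, and the diagonal is left blank. Fos, Jun, Junb, Egr1, Atf3 and Fosb hold most of the higher values, with a maximum of 0.4, and the Klf6 row and column hold the lowest, down to 0.04.

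The same was seen in counts of detected genes. In cells thinned to 912 UMIs (984 WT and 964 ROBO, with 364 and 285 shallower cells left out), 466 of 1948 cells (23.9%) had none of the 10 genes. The product of the genes' shares within each class gives 208.7 such cells. At the other end, 381 cells (19.6%) had 4 or more, where the product gives 238.2, and 127 had 6 or more, where it gives 12.9. A single cell had 9, and none had all 10. Each of the 45 pairs was found together in more cells than the product of shares within class, by 1.03 to 2.82 times (median 1.56). These ratios ordered the pairs differently from r. Atf3 with Nr4a1 had the highest (2.82) and Nr4a1 with Ier5 the lowest (1.03), while Fos with Jun had 1.38. The pairs of Klf6 ran from 1.15 (with Junb) to 1.81 (with Atf3). For these counts too, no pairs among other genes are given for comparison.

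**Figure D3:**
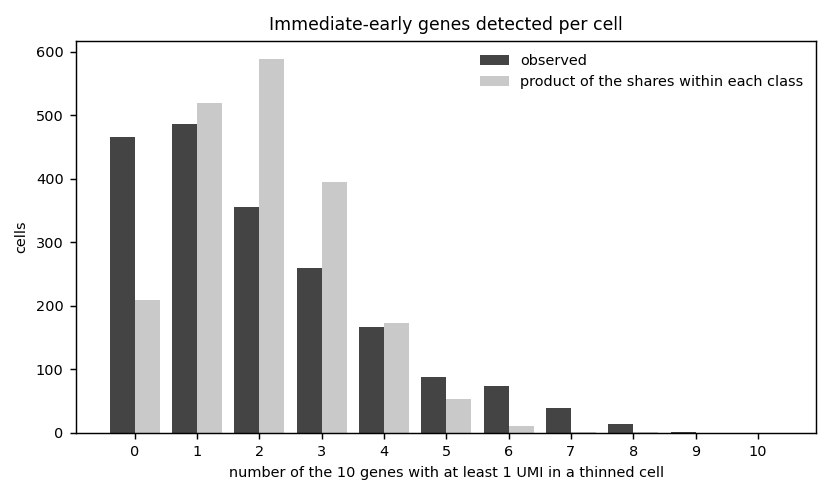
Number of thinned cells (vertical axis) by how many of the 10 genes had at least 1 UMI (horizontal axis); dark bars are the counts observed among 1948 cells, and pale bars the counts given by multiplying the genes' shares within each class. Observed counts exceed the product at 0 genes (466 against 208.7), at 5 (88 against 52.2) and at 6 or more (127 against 12.9), and fall below it at 1 to 4.

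Cells with 4 or more of the 10 genes came from every class. Their share was 7.29% (14 of 192) in the unnamed cluster, 13.8% (49 of 355) in stem cell-like, 14.1% (22 of 156) in top enterocyte-like and 19.6% (97 of 496) in transiently amplifying-like cells. It was 21.5% (83 of 386) in middle enterocyte-like, 25.7% (9 of 35) in immune-like, 29.5% (65 of 220) in bottom enterocyte-like and 36.4% (32 of 88) in secretory-like cells, and 10 of 20 in enteroendocrine-like cells. The exact binomial intervals of the stem cell-like (10.4% to 17.8%) and the secretory-like class (26.4% to 47.3%) did not overlap. The share was 19.5% in WT and 19.6% in ROBO, a difference of 0.09 percentage points (−3.43 to 3.62). Cells with none made up 26.1% in WT and 21.7% in ROBO, a difference of −4.44 points (−8.21 to −0.648).

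When the 10 genes and the companion lists were kept among the genes used for clustering, 174 cells (105 WT, 69 ROBO) came together in a cluster led by Atf3, Fosb, Plk3, Epha2 and Hbegf. Since these genes formed the cluster, its levels are a description only. It had 133.5 UMIs of the 10 genes per 10000, against 31.2 in all other cells, and all 10 were at least 1.5-fold above the rest. It was 6.7% of the cells and held 18.5% of the UMIs of the 10 genes, and 30.5% of Fosb and 30.4% of Atf3. In the clustering without these genes, 69 of its cells were middle enterocyte-like, 48 transiently amplifying-like, 47 bottom enterocyte-like, 7 stem cell-like and 3 unnamed, and none was secretory-like, enteroendocrine-like, top enterocyte-like or immune-like. It made up 7.79% of WT cells (6.41% to 9.35%) and 5.52% of ROBO cells (4.32% to 6.94%). Its cells were shallow, with a median of 1189 UMIs.

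Summed over all cells, the 10 genes were at the same level in both genotypes to within counting error. The log2 ratio of ROBO to WT was 0.01 (−0.03 to 0.05). In the 4 groups of cells by depth, from fewest to most UMIs, the ratio of the sum was −0.15, 0.09, 0.01 and 0.03. Its interval left out 0 only in the shallowest group (−0.26 to −0.04). Single genes departed to either side. Nr4a1 had the largest difference, with 453 UMIs in WT and 277 in ROBO, or 1.69 against 1.14 per 10000, a log2 ratio of −0.57 (−0.79 to −0.35). Fos was higher in ROBO, with 2612 and 2678 UMIs, or 9.74 against 11 per 10000, a log2 ratio of 0.18 (0.10 to 0.26). Jun was lower in ROBO, with 2053 and 1692 UMIs, or 7.65 against 6.97 per 10000, a log2 ratio of −0.14 (−0.23 to −0.04). Fos and its main partner thus differed in opposite directions, both by little.

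For Ier5 the log2 ratio was 0.22, with an interval that just left out 0 (349 and 367 UMIs). The intervals of the remaining 6 genes held 0. Their log2 ratios were −0.13 for Atf3, −0.08 for Junb, −0.02 for Fosb, 0.03 for Ier2, 0.07 for Klf6 and 0.13 for Egr1. None of the 10 passed 1.5-fold in either direction. Among 7458 genes with at least 100 UMIs over both genotypes, 1.13% were at least 1.5-fold higher in ROBO and 1.66% at least 1.5-fold lower, and the median log2 ratio was 0.00.

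Nr4a1 was lower in ROBO in shallow and deep cells alike, but not in every class. In the 4 groups of cells by depth, from fewest to most UMIs, its log2 ratio was −0.77, −0.32, −0.52 and −0.61, with an interval that held 0 in the second. It was −0.77 in stem cell-like cells (100 and 53 UMIs), −0.53 in transiently amplifying-like cells (119 and 71), −0.98 in bottom enterocyte-like cells (69 and 28) and −1.37 in immune-like cells (68 and 17). In secretory-like cells it was 0.31 (33 and 41 UMIs) and in middle enterocyte-like cells 0.79 (21 and 36), both with intervals that held 0. Without the immune-like cells the ratio over all cells was −0.43. The share of thinned cells with a Nr4a1 UMI was 10.3% in WT and 8.2% in ROBO, a difference of −2.07 points whose interval held 0 (−4.65 to 0.511). Giving each cell the same weight took the ratio to −0.64, past 1.5-fold. Rn45s moved the same way as Nr4a1, with counts of 2273 (WT) and 1439 (ROBO) and a log2 ratio of −0.52. With Rn45s and the ribosomal protein genes left out of the scaling, the Nr4a1 ratio was −0.57.

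By class, the sum of the 10 genes differed between genotypes by small amounts in both directions. The log2 ratio was 0.20 (0.12 to 0.28) in transiently amplifying-like, 0.11 (0.02 to 0.20) in middle enterocyte-like, −0.14 (−0.25 to −0.03) in stem cell-like, −0.17 (−0.28 to −0.06) in bottom enterocyte-like and −0.14 (−0.28 to −0.00) in secretory-like cells. In the unnamed cluster, top enterocyte-like, enteroendocrine-like and immune-like cells the interval held 0. The transiently amplifying-like class joined 2 clusters that differed in opposite directions. Its Rn45s-led cluster had 41.4 per 10000 in WT and 38.7 in ROBO, and its deeper cluster, led by Sfrp5, had 29.4 in WT and 37.4 in ROBO. These class values turned with the clustering: the transiently amplifying-like ratio ranged from −0.12 to 0.30 and the bottom enterocyte-like ratio from −0.51 to 0.27 over 10 other settings. Bottom enterocyte-like cells were also deeper in ROBO, with a median of 2443 UMIs against 1415 in WT, and among cells between 912 and 2635 UMIs their ratio was −0.51.

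Single genes past 1.5-fold within a class were few. Among genes with at least 100 UMIs in the class, Nr4a1 was 1 of 6 members tested and lower in ROBO in stem cell-like cells, where 1.84% of 1574 genes were. Ier5 was the only one of 9 that was higher in transiently amplifying-like cells (71 and 109 UMIs, log2 ratio 0.83), where 4.25% of 3080 genes were. Junb was the only one of 6 that was lower in bottom enterocyte-like cells (171 and 81 UMIs, log2 ratio −0.76), where 8.5% of 1130 genes were. Egr1 was the only one of 9 that was higher in middle enterocyte-like cells (113 and 176 UMIs, log2 ratio 0.66), where 1.27% of 1897 genes were. The secretory-like class had the most, with Fosb (77 and 48 UMIs, log2 ratio −0.69), Junb (68 and 38, −0.85) and Egr1 (101 and 58, −0.81) lower in ROBO, 3 of 7, where 11.4% of 315 genes were. Fos in the same class was 0.30 higher, with 231 and 285 UMIs, but its share of thinned cells with a UMI was 68.4% in WT and 56% in ROBO. The intervals of the share differences of Fos, Fosb, Junb and Egr1 in this class held 0. Secretory-like cells were deeper in ROBO, with a median of 1869 UMIs against 1410 in WT, and among those between 912 and 2635 UMIs the log2 ratio of the sum of the 10 genes was −0.31.

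In immune-like cells, which numbered 26 in WT and 20 in ROBO, both members with at least 100 UMIs were higher in ROBO, as were 7.07% of 99 genes. These were Junb (110 and 119 UMIs, 20.3 against 34 per 10000, log2 ratio 0.74) and Fos (50 and 53 UMIs, 9.24 against 15.1 per 10000, log2 ratio 0.71). Of the 10 genes, 6 were lower in ROBO there, as were 50.5% of the 99 genes. Among the 6 were Jun (56 and 11 UMIs, log2 ratio −1.72), Egr1 (30 and 6, −1.69) and Nr4a1 (68 and 17, −1.37), each below 100 UMIs. Fosb, also below 100 UMIs, was higher in ROBO (15 and 21 UMIs, log2 ratio 1.11, 0.09 to 2.17). Atf3 (log2 ratio −1.11) and Ier2 (−1.09) were lower in ROBO by less than Jun, Egr1 and Nr4a1, with intervals that held 0. The share of thinned cells with a Jun UMI went the other way, at 5.26% in WT and 25% in ROBO. For Egr1 it was 15.8% and 12.5%, and for Nr4a1 42.1% and 31.25%. The intervals of these share differences held 0. These values rest on few cells, and the ratio of the sum of the 10 genes in this class ranged from −0.35 to 1.00 over 10 other settings. No member with at least 100 UMIs passed 1.5-fold in the unnamed or top enterocyte-like cells, and none reached 100 UMIs in the enteroendocrine-like class.

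**Figure D4:**
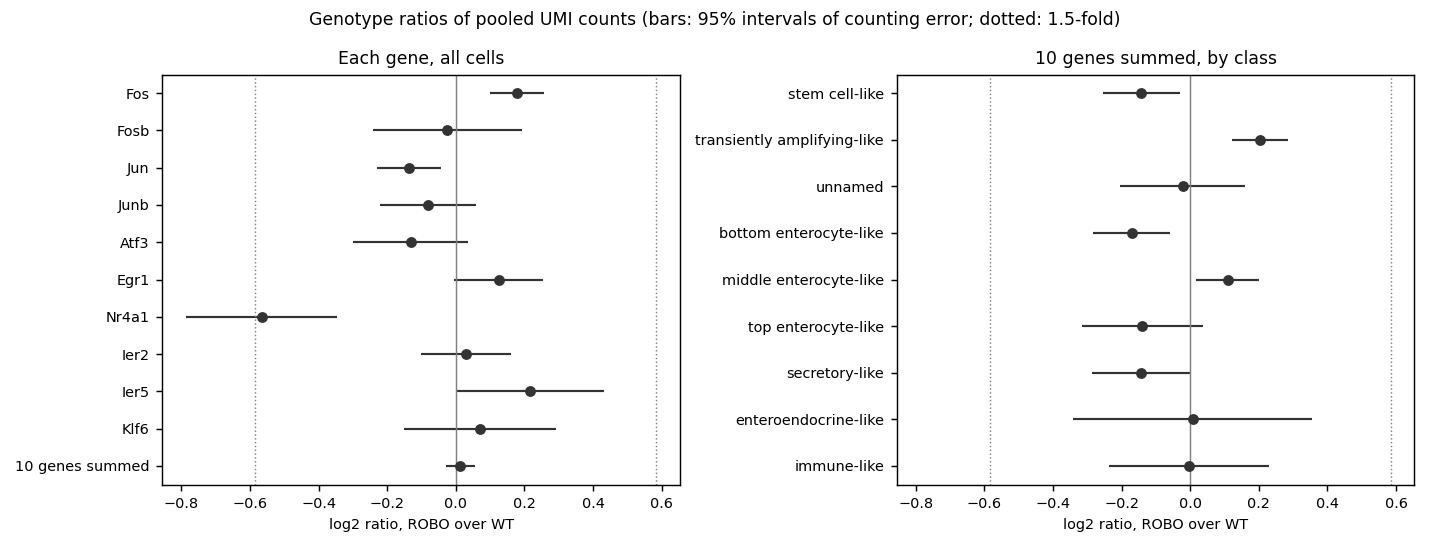
Log2 ratio of ROBO to WT of pooled UMI counts per 10000 (horizontal axis) for each of the 10 genes and their sum over all cells (left) and for the sum within each class (right); points are ratios, bars 95% intervals of counting error, and dotted lines 1.5-fold. Nr4a1 lies at −0.57, apart from the other 9 genes, and the sum over all cells lies at 0.01.

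The rest of the early response was read from 7 lists of genes that are not among the 10, by comparing thinned cells with 4 or more of the 10 genes against thinned cells with none. Levels are per 10000 UMIs of genes other than the 10. Over 7448 genes with at least 100 UMIs, 15.7% were at least 1.5-fold higher in the cells with 4 or more, and the median log2 ratio was 0.01. The cells with 4 or more had a median of 1827 UMIs before thinning against 2303 in cells with none. They also had more Paneth, goblet and enteroendocrine marker UMIs (54, 68.5 and 28.5 against 11.7, 40.1 and 1.41 per 10000), and secretory-like and enteroendocrine-like cells were more frequent among them. Immune marker UMIs were also higher, at 8.2 against 1.98 per 10000, and without immune-like cells the sums of the 7 lists were 1.4-fold to 3.15-fold higher. Within the stem cell-like class alone, which holds none of these cells, the sums of the 7 lists were 1.15-fold to 3.34-fold higher, and within the enterocyte-like classes 1.35-fold to 2.88-fold.

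The list of feedback regulators, only some of which end the early response, had the highest summed ratio of the 7 lists. Its sum had 13.6 per 10000 in cells with none of the 10 genes and 45 in cells with 4 or more, 3.3-fold, with 17.2, 23.2 and 29.9 in cells with 1, 2 and 3. Of its 20 genes with at least 100 UMIs, 15 were past 1.5-fold. Dusp1, a phosphatase of MAP kinases, was 12.9-fold higher (7.56 to 23.5, 15 and 156 UMIs). Socs3, a suppressor of cytokine signalling, had 2 and 28 UMIs (17.3-fold, 4.36 to 149.9). Rgs1, a regulator of G protein signalling, had 2 and 30 UMIs (18.5-fold, 4.71 to 160.1), but it was a leading gene of the immune-like cluster. Without immune-like cells Rgs1 had 0 and 1 UMIs, and Socs3 1 and 27. Tnfaip3, which limits NF-kB, was 7.21-fold higher with 6 and 35 UMIs. Without immune-like cells it was 3.77-fold higher (1.43 to 11.6, 6 and 18 UMIs). Zfp36, which promotes decay of early response transcripts, was 5.53-fold higher with 70 and 313 UMIs. In stem cell-like cells alone the list's sum was 3.34-fold higher and in enterocyte-like cells alone 2.88-fold.

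Of the other immediate-early transcription factor genes, 10 of 14 were past 1.5-fold higher, and the sum was 2.21-fold higher. Among them were Maff (10.7-fold), Ier3 (5.83-fold) and Fosl2 (5.3-fold), the last another Fos relative. Nr4a3, a paralog of Nr4a1, had 0 and 17 UMIs and was at least 7.01-fold higher against a floor of 3 counts in the pooled cells with none. Klf4 was 4.12-fold and Jund 3.32-fold higher. Myc (0.778-fold, 0.491 to 1.22) and Irf1 (0.975-fold) did not follow, nor did Cebpd, with 9 and 2 UMIs.

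The signalling genes upstream were mostly level. Their sum was 1.38-fold higher and 4 of 18 were past 1.5-fold. These were Areg (19.8-fold, 8.13 to 62.6, 5 and 80 UMIs) and Hbegf (7.42-fold, 18 and 108 UMIs), both EGF receptor ligands, Srf (3.04-fold) and Map2k1 (1.55-fold, with an interval that held 1). The kinase gene Mapk3 (0.867-fold) and the receptor gene Erbb2 (0.721-fold) lay below 1 with intervals that held 1. The other EGF receptor ligand genes were near the limit of detection, with 6 and 3 UMIs of Tgfa, 2 and 0 of Btc, 0 and 1 of Ereg and 0 in both of Egf.

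Among heat-shock and chaperone genes, 6 of 14 were past 1.5-fold, and the sum was 1.42-fold higher (1.18-fold in stem cell-like and 1.9-fold in enterocyte-like cells alone). Among those past it were the inducible Hspa1a (5.98-fold) and Hspa1b (4.51-fold) and the co-chaperone Dnajb1 (2.64-fold). Hsp90ab1 (1.05-fold), Hspd1 (0.948-fold) and Hspe1 (0.909-fold) stayed near 1. Hsp90aa1 (1.16-fold) and Hsph1 (1.17-fold) had intervals that held 1, and those of Hspa8 (1.23-fold, 1.03 to 1.47) and Hspa5 (1.47-fold, 1.21 to 1.79) lay above it. The integrated stress response list had 5 of 8 past 1.5-fold and a sum 1.6-fold higher, with Ppp1r15a (7.83-fold), Ddit3 (3.54-fold), Asns (2.3-fold) and Atf4 (1.88-fold) the highest. Chemokine and NF-kB target genes had 3 of 6 past 1.5-fold, namely Ccl20 (2.83-fold), Nfkb2 (1.77-fold) and Nfkb1 (1.52-fold), on 7 to 32 UMIs each, and the intervals of the last 2 held 1. Of the nuclear and ribosomal RNAs, Rn45s was 3.03-fold higher (2.54 to 3.64), Malat1 1.7-fold and Neat1 1.1-fold (0.832 to 1.44). The list's sum was 2.65-fold higher in WT alone and 1.46-fold in ROBO alone. Rn45s moved with the 10 genes in depth as well, and its part in these ratios was not tested.

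**Figure D5:**
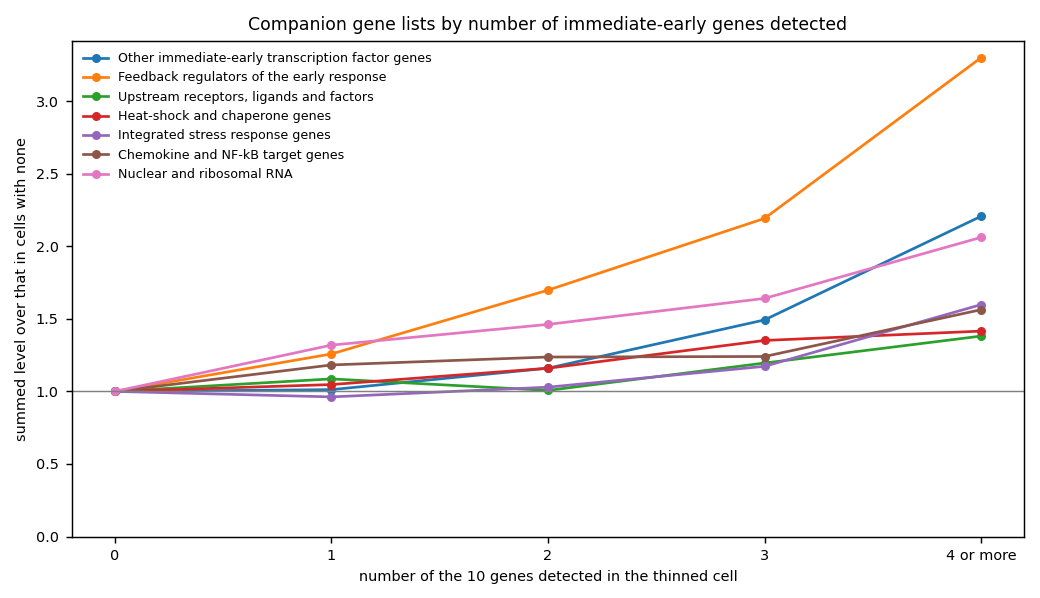
Summed level of each of 7 gene lists (vertical axis, as a multiple of the level in cells with none of the 10 genes) against the number of the 10 genes detected in the thinned cell (horizontal axis). The feedback regulators climb to 3.3-fold in cells with 4 or more, above the other immediate-early factors at 2.21-fold and the heat-shock list at 1.42-fold.

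Between genotypes these lists differed little. The log2 ratio of ROBO to WT of the sum was −0.00 for the other immediate-early factors, −0.01 for the feedback regulators, 0.04 for the upstream genes, −0.04 for the heat-shock genes, −0.03 for the integrated stress response and 0.03 for the chemokine list. It was −0.26 for the nuclear and ribosomal RNAs, where Rn45s was the gene with a difference. Of all their genes with at least 100 UMIs, only Dusp6, a phosphatase of ERK, passed 1.5-fold (41 and 59 UMIs, log2 ratio 0.67, 0.07 to 1.28), and none passed it downwards. Among the other genes with the largest ratios were Zfp36l2 (0.54), Map2k1 (0.55, 190 and 251 UMIs), Btg1 (0.44), Jund (−0.40) and Fosl2 (0.39).

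The 20 genes whose levels across cells were most like the mean of the 10 genes, among 7448, included Zfp36 (r 0.40), Dusp1 (0.39), Hbegf (0.35), Slc38a2, an amino acid transporter (0.33), and Nfkbia, the inhibitor of NF-kB (0.33). The median r of all genes was 0.00. Of the 20, 12 were in the lists above. The remaining 8 were Slc38a2, the polo-like kinase gene Plk3 (0.31), the matricellular gene Cyr61 (0.29), the ephrin receptor gene Epha2 (0.28), the Notch target Hes1 (0.26), the tight junction gene Cldn4 (0.24), Rasd1 (0.24) and Ifrd1 (0.23). In WT alone 19 of the 20 were again among the top 20, in ROBO alone 17, and in thinned cells 17. These correlations are across cells of the same pooled libraries and are descriptions without a test.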

How the data were processed

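Per the labels and the study's methods, crypt-enriched small intestine was dissociated, passed through a 20 µm mesh and depleted of dead cells, and libraries were made with the ddSEQ SureCell 3' kit with UMIs. The authors deposited raw UMI counts from the BaseSpace Sequence Hub, 1 table per genotype. The aligner is not given in the sources used here, and the submitters' processing notes name mm10 and GRCm38. The study then normalized, adjusted for cell cycle and clustered with Seurat. The 10 genes and the companion lists were chosen with earlier results of these data known.

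From the deposited counts, 2000 variable genes were taken without the 10 genes and lists (131 genes left out), phase scores were regressed out, and cells were clustered on 20 principal components at resolution 0.8 (Seurat 5.3.0, R 4.3.3). A cluster was named where at least 3 fixed markers were raised 1.5-fold and markers of its own class were not outnumbered among its 10 leading genes. Rebuilt classes may differ from the study's. Scrublet in scanpy 1.11.5 marked 2 WT and 4 ROBO cells as doublets at a set rate of 5%. They were kept, and other doublets may remain. No mitochondrial genes were listed. Levels are summed UMIs per 10000, with exact Poisson 95% intervals, exact binomial (Clopper-Pearson) intervals for shares, Newcombe intervals for differences of shares and conditional binomial intervals for ratios. All cover counting error only. Shares were taken in cells thinned to 912 UMIs, the lower quartile. Genes needed at least 100 UMIs to be counted against 1.5-fold. With 1 pooled sample per genotype no test was possible. Calculations were checked on simulated data. Named genes are the 10, and from each list up to 4 with the largest ratio between cells with 4 or more and with none and up to 4 with the largest genotype ratio, with 20 most like the 10. Other list genes named beside them (such as Zfp36, Klf4, Jund, Myc, Irf1, Cebpd, Tgfa, Btc, Ereg, Egf, Mapk3, Erbb2, Hsp90ab1, Hsp90aa1, Hspa8, Hspa5, Hspd1, Hspe1 and Neat1) were chosen after their values were seen. Some list genes that the rule names are not reported here. Alternatives varied the clustering, thinning, weighting and scaling. Restriction to cells between the quartiles of depth and, for the lists, leaving out immune-like cells were chosen after seeing the data.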

Additional observations from a re-analysis of the deposited data

How the results depend on the processing

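No paired analysis was possible because the cells of a genotype carry no link to its 8 numbered samples, and for the same reason no sample was left out in turn. The level of the 10 genes in secretory-like over stem cell-like cells, 2.11-fold, was 2.67-fold with the genes and lists kept for clustering, 2.42-fold without phase regression, 2.64-fold at resolution 0.5, 2.46-fold with 10 principal components, 2.61-fold with doublets removed and 1.82-fold with each cell given the same weight. The transiently amplifying-like genotype ratio of the sum, 0.20, changed sign at resolution 0.5 (−0.0089), with 10 principal components (−0.075) and with 30 (−0.12), and was 0.0076 without phase regression, 0.30 in cells with at least 500 genes and 0.092 with each cell given the same weight. The bottom enterocyte-like ratio, −0.17, changed sign at resolution 0.5 (0.15), at 1.2 (0.033) and with 10 principal components (0.27), the stem cell-like ratio without phase regression (0.043), and the middle enterocyte-like ratio with the genes and lists kept (−0.10). The cells making up a class change in these settings, and the cause was not tested further. With each cell given the same weight 1 gene, Nr4a1, passed 1.5-fold over all cells, against 0 otherwise, and Nr4a1 stayed between −0.64 and −0.43 over 9 settings. The share of secretory-like cells with 4 or more genes was 49.2% in cells thinned to 1550 UMIs and 53.2% unthinned. The median r was 0.158 in thinned cells. The top 10% of cells held 42.1% of the summed UMIs, 39.8% when thinned, 43.2% in WT and 40.9% in ROBO. The feedback list was 2.88-fold higher in enterocyte-like cells alone. Low counts limit the enteroendocrine-like and immune-like classes.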
